A study of Arabidopsis thaliana with 3 samples.

Results

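Ribosomal protein genes of Arabidopsis thaliana were examined in lists of chromatin regions, called islands, that were enriched for the GFP fusions of TZP or ZFHD10. The genes were all nuclear protein-coding genes whose symbol begins with RPL or RPS and a number and whose gene names hold the word ribosomal. This rule gave 40 genes of 27432, of which 22 (RPL) encode proteins of the large ribosomal subunit and 18 (RPS) proteins of the small subunit. It left out 4 genes with such symbols, RPS2 (AT4G26090), RPS4 and RPS6 (AT5G46470) among them, which are disease resistance genes and carry no ribosomal name. By the words in their names, or for 28 genes by common knowledge of the protein assigned by hand, 23 encode proteins of cytosolic ribosomes, 13 of plastid ribosomes and 4 of mitochondrial ribosomes.

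Cytosolic ribosomes translate the messages of the nuclear genome, while plastids and mitochondria keep ribosomes of bacterial type, whose proteins are partly encoded in the nucleus and imported. In plants a cytosolic ribosomal protein is usually encoded by several very similar genes, and expression of these genes follows growth, since ribosomes are made where cells grow and divide. TZP has zinc fingers, acts in light signalling and promotes hypocotyl growth, and ZFHD10 is a zinc-finger homeodomain protein, taken here as HB23 (AT5G39760), which the gene table also names ZHD10.

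The series had 3 libraries from 7-day-old seedlings grown in low blue light, each immunoprecipitated with an antibody to GFP. The plants were Col-0 (the wild type), OX TZP and OX ZFHD10, where OX is taken as overexpression of the named protein and Col-0 as free of GFP. The sources used here name neither the promoter of either construct nor the number of independent transgenic lines, and no list of Col-0 was analysed here. The nuclear chromosomes held 11675 islands with 2028493 reads in OX TZP and 16122 islands with 4731495 reads in OX ZFHD10. Each line had 1 library, so differences between lines or between groups of genes have no replicate check and none was tested. The intervals in parentheses are 95% intervals that cover counting error only (Wilson for shares of genes, exact Poisson for reads per kb of island). Genes that share an island or a neighbour are not independent observations, so intervals of shares may be too narrow. Since whole-library depth is unknown, read densities are compared within a list.

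Most of the 40 ribosomal protein genes taken by symbol had an OX ZFHD10 island at a gene end, and fewer had an OX TZP island there. A gene end meant, at either side of a gene, the last 100 bp of the gene and the 1000 bp beyond it. In OX ZFHD10, 35 of 40 genes had such an island, or 87.5% (73.9 to 94.5), where 65.1% of all protein-coding genes had one. In OX TZP, 15 of 40 genes had one, or 37.5% (24.2 to 53.0), where the share of all protein-coding genes was 40.5%. The OX ZFHD10 share was thus above that of all genes, and the OX TZP share was close to that of all genes. A high OX ZFHD10 share of ribosomal protein genes was known from these data before the genes were chosen. Its counting interval, which leaves out the 65.1% of all genes, is therefore no independent check. Islands of each line were found at 14 of the 40 genes, or 35% (22.1 to 50.5), against 31.6% of all genes. Of the other genes, 1 had an OX TZP island alone (2.5%, against 8.95% of all genes), 21 had an OX ZFHD10 island alone (52.5%, against 33.5%) and 4 had none (10%, against 26%). The sources used here do not name the control of the island calls. Both calls may share it, so islands of each line at a gene are not independent of each other.

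**Figure D1:**
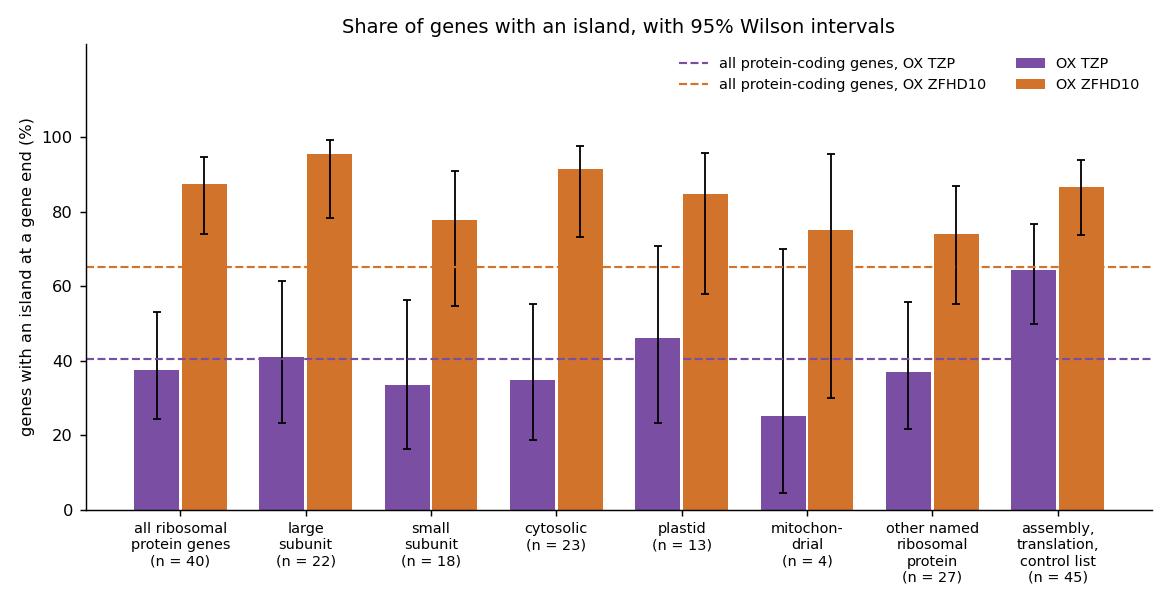
Share of genes with an island at a gene end (percent, y axis) for the ribosomal protein genes, their subunit and compartment groups, and 2 comparison lists, with 95% Wilson intervals; dashed lines give the share of all protein-coding genes. The OX ZFHD10 bars of the ribosomal protein groups lie between 75% and 95.5%, above the dashed line at 65.1%, while the OX TZP bars lie between 25% and 46.2%, on either side of the dashed line at 40.5%.

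Between subunits, large-subunit genes had OX ZFHD10 islands in 21 of 22 cases (95.5%, 78.2 to 99.2) and small-subunit genes in 14 of 18 (77.8%, 54.8 to 91.0). In OX TZP the counts were 9 of 22 (40.9%, 23.3 to 61.3) and 6 of 18 (33.3%, 16.3 to 56.3). These differences were not tested, and the OX ZFHD10 order depended on the setting. With 2000 bp outside the gene the OX ZFHD10 shares were 95.5% for large-subunit and 94.4% for small-subunit genes, against 73.2% of all genes. Among the 50% of islands with the most reads the order was reversed, at 6 of 22 (27.3%) and 8 of 18 (44.4%), against 39.4% of all genes. Between compartments, cytosolic genes had OX ZFHD10 islands in 21 of 23 cases (91.3%, 73.2 to 97.6) and plastid genes in 11 of 13 (84.6%, 57.8 to 95.7), while OX TZP islands were found at 8 of 23 cytosolic genes (34.8%, 18.8 to 55.1) and at 6 of 13 plastid genes (46.2%, 23.2 to 70.9). These differences were not tested either. Among the 50% of OX ZFHD10 islands with the highest density, 15 of 23 cytosolic (65.2%) and 3 of 13 plastid genes (23.1%) had one, against 39.2% of all genes. Among the 50% with the most reads the counts were 11 of 23 (47.8%) and 2 of 13 (15.4%), against 39.4% of all genes. Over the gene from end to end, the OX TZP order was reversed, at 11 of 23 cytosolic (47.8%) and 5 of 13 plastid genes (38.5%). The share of all genes was 34.3% there. Of the 4 mitochondrial genes, 3 had an OX ZFHD10 island and 1 an OX TZP island. The 12 cytosolic large-subunit genes were the group in which every gene had an OX ZFHD10 island.

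Ribosomal protein genes are short and lie close to their neighbours, and most islands at their ends also reached a neighbour. Their median length was 1587 bp against 2078 bp over all protein-coding genes, and the median summed distance to both neighbouring genes was 460 bp against 1360 bp. Of the 42 pairings of a ribosomal protein gene with an OX ZFHD10 island at its end, 40 involved an island that also reached an end of another protein-coding gene (95.2%, against 77.0% of such pairings over all genes). In OX TZP this held for 14 of 16 (87.5%, against 70.5%). When an island was given only to the gene nearest to its midpoint, 25 of 40 genes kept an OX ZFHD10 island at an end (62.5%, against 44.5% of all genes) and 11 kept an OX TZP island (27.5%, against 23.5%). How far gene spacing accounts for the OX ZFHD10 share was not tested.

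Coverage by OX ZFHD10 islands was highest at the gene end and at 100 bp outside it, with 35 of 80 ends covered at either point (43.8%, against 32.6% and 33.1% of the ends of all genes), and was 17.5% at 500 bp outside (22.1% over all genes) and 8.33% at 500 bp inside (11.2%). Coverage by OX TZP islands was 13.8% at the end (13.5% over all genes). From 100 to 2000 bp outside it ranged from 6.25% to 13.8% (10.6% to 13.3% over all genes). From 100 to 700 bp inside it ranged from 15% to 22.4% (11.6% to 13.7%). The ends of shorter genes drop out there, with 12 of 80 ends covered at 100 bp and 13 of 58 at 700 bp. Differences from all genes were not tested, and neighbouring points share islands. In all, 17 genes had an OX TZP island somewhere over the gene (42.5%, against 34.3% of all genes), and 7 had an OX TZP island wholly inside it (17.5%, 8.75 to 31.95, against 13.5%). An OX ZFHD10 island lay over 33 genes (82.5%, against 54.3%) and wholly inside 2, RPL18AA and RPS28 (5%, against 3.69%).

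**Figure D2:**
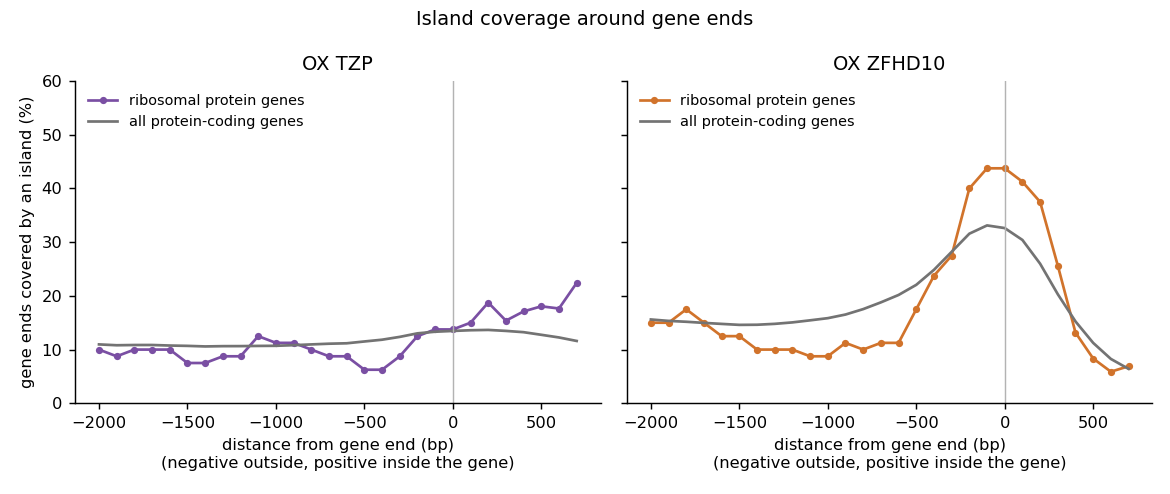
Share of gene ends covered by an island (percent, y axis) by distance from the gene end (bp, x axis; negative outside, positive inside, to the middle of the gene), for the ribosomal protein genes and for all protein-coding genes. The OX ZFHD10 curve of the ribosomal protein genes peaks at 43.8% at the gene end and 100 bp outside it. The OX TZP curve lies between 6.25% and 13.8% outside the gene and between 15% and 22.4% from 100 to 700 bp inside. Ends of shorter genes drop out inside, from 80 ends at 100 bp to 58 at 700 bp.

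Most of the 35 ribosomal protein genes with an OX ZFHD10 island at an end had islands at only 1 end. These counts of ends, and those below of islands that reached into a gene, were not made over all genes. They can therefore not be called particular to ribosomal protein genes. An island at the end with the lower position alone was found at 16 genes and at the end with the higher position alone at 15, while RPL23AB, RPL27, RPS14 and RPS15 had islands at both. The gene table gives no strand, so these ends could not be named as the start or the end of transcription. The islands were short, with a median of 700 bp against 800 bp for the whole list, and at 32 of the 35 genes an island reached into the gene, whereas at RPL12-B, RPS15A and RPS28 those at the end stayed outside. In OX TZP the islands at the ends of these genes had a median length of 1300 bp against 900 bp for the whole list. At 12 of 15 genes one reached into the gene. Islands inside the genes that missed the end windows are not in this median. Long islands meet an end window more easily, and the lengths were not compared with islands at the ends of all genes.

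The median read density at these genes lay near the middle of each list, and in OX ZFHD10 below that of all genes with an island. The densest OX TZP islands at the 15 genes had between 146 and 192.5 reads per kb, with the median gene at percentile 52.2 of the list, against 51.9 over all genes with an island. None lay in the top 10% of the list, where 10.4% of all genes with an island did. In OX ZFHD10 the 35 genes ranged from 199 to 458 reads per kb, with the median gene at percentile 52.8, against 60.02 over all genes with an island. Only RPS15AD and RPL18 were in the top 10% (5.71%, against 13.9% of all genes with an island). Of the 10 densest genes per line, the island was centred nearer to another gene at 3 in OX TZP (RPS28, RPL27 and RPL12-B) and at 4 in OX ZFHD10 (RPL18, RPS15A, RPS28 and RPL15).

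**Figure D3:**
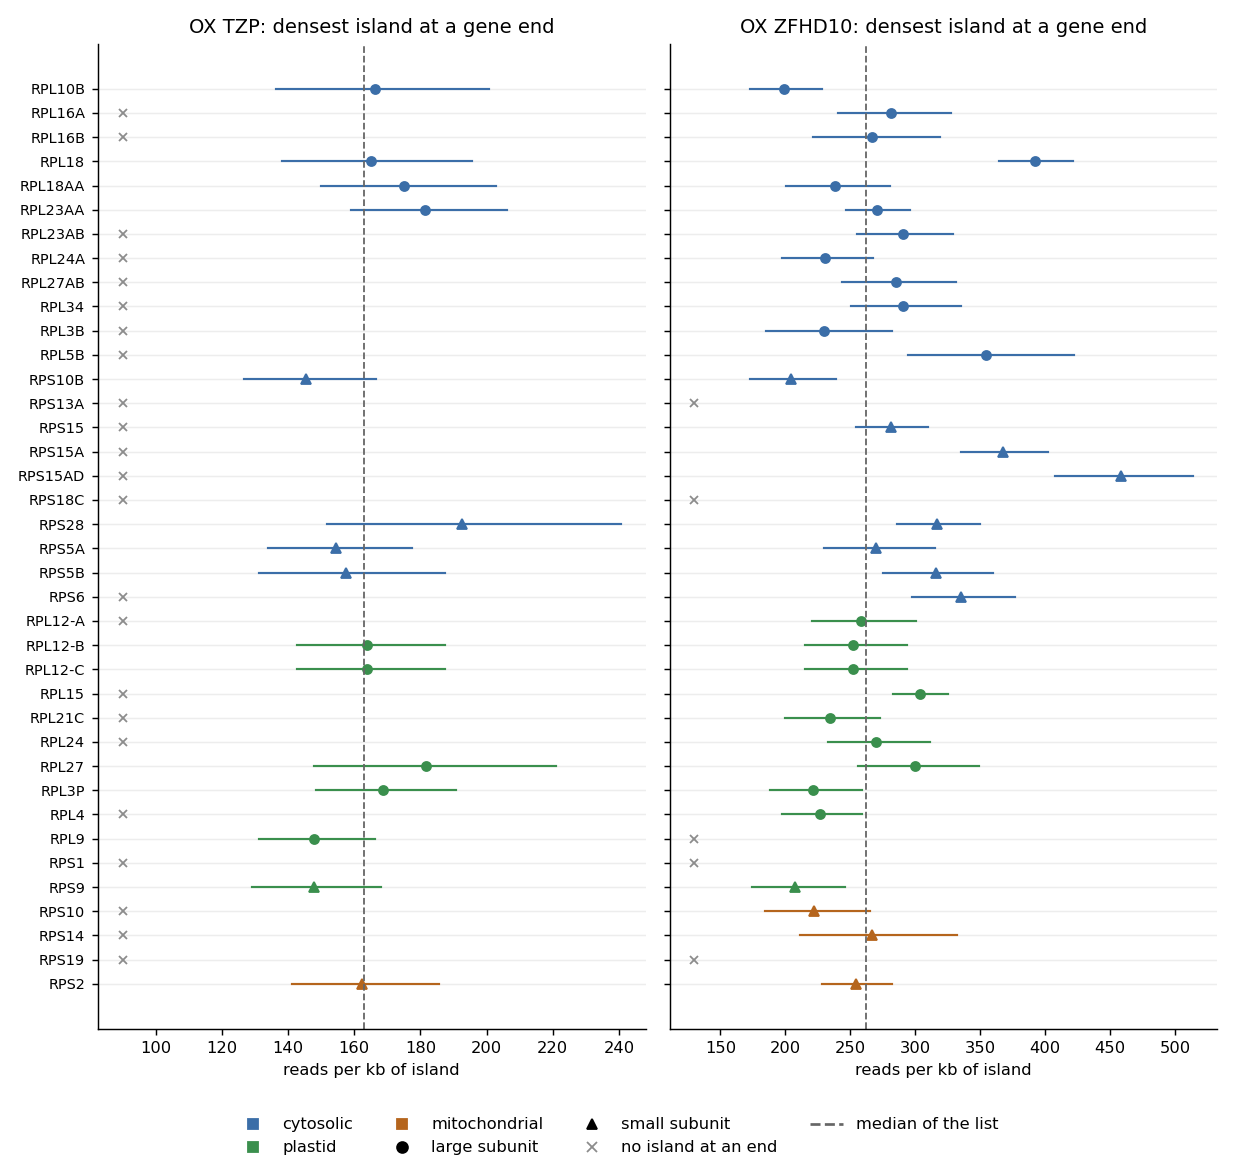
Read density of the densest island at a gene end (reads per kb of island, x axis) for 38 of the 40 genes, with 95% Poisson intervals; colour gives the compartment, circles the large and triangles the small subunit, crosses genes with no island at an end, and dashed lines the median of the list. The 7 densest OX ZFHD10 values belong to cytosolic genes, from RPS15AD at 458 reads per kb to RPS5B at 316, and the OX TZP values lie between 146 and 192.5.

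Among cytosolic large-subunit genes, RPL18 had the densest island at an end, though one centred nearer to another gene. It lay in OX ZFHD10 (chr3:1619551-1621450, TAIR10 as for all positions) with 392 reads per kb (364 to 421), rank 1108 of 16122, covered 5.65% of RPL18 and also reached an end of the protein phosphatase gene TOPP9. The OX TZP island at RPL18, at the opposite end of the gene, had 165 reads per kb (138 to 196). RPL5B encodes a protein that binds a small ribosomal RNA of the large subunit, and its synonym OLIGOCELLULA refers to the small number of leaf cells in mutants. Its OX ZFHD10 island (chr5:15903151-15903500) had 354 reads per kb (295 to 422). RPL5B lies 5817 bp from HB23, the gene taken as ZFHD10, and any effect of that nearness on the density at RPL5B was not tested. It had no OX TZP island at an end, but 1 inside the gene with 161 reads per kb (138 to 187). RPL34 had 291 reads per kb (251 to 335) in OX ZFHD10, and its OX TZP island also lay inside the gene, with 176 reads per kb (141 to 217).

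RPL23AA, RPL18AA and RPL10B had islands of each line that overlapped. RPL23AA, whose protein lies at the exit of the tunnel through which the new chain leaves the ribosome, had an OX TZP island (chr2:16473951-16475250) with 182 reads per kb (159 to 206). This island lay wholly within the OX ZFHD10 island (chr2:16473601-16475350), which had 271 reads per kb (247 to 296) and covered 60.3% of the gene. At RPL18AA, on chromosome 1, the OX ZFHD10 island (chr1:10501151-10501750) with 238 reads per kb (201 to 281) lay wholly within the OX TZP island (chr1:10500751-10501750) with 175 (150.0 to 203). At RPL10B, also on chromosome 1, the OX ZFHD10 island (chr1:9320801-9321850) had 199 reads per kb (173 to 228). An OX TZP island (chr1:9320101-9321900) with 131 (115 to 149) enclosed it. That OX TZP density ranked 11613 of 11675, near the bottom of the list, and a denser island of the same line, with 166 reads per kb (136 to 201), lay 723 bp beyond the other end. The remaining 6 cytosolic large-subunit genes, RPL3B, RPL16A, RPL16B, RPL23AB, RPL24A and RPL27AB, had OX ZFHD10 islands of 230 to 291 reads per kb and no OX TZP island at an end.

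The cytosolic small-subunit genes held the densest OX ZFHD10 island of the whole set. At RPS15AD the island (chr3:16914101-16914750) had 298 reads, or 458 reads per kb (408 to 514). This was 1.75 times the list median and ranked 346 of 16122. It covered 17.2% of the gene and also reached ends of the histone gene HTB11 and of AT3G46020. RPS15A, which encodes the same protein, had an island (chr1:2405851-2407150) with 368 reads per kb (335 to 402), which stayed 261 bp outside RPS15A and was centred nearer to another gene. Neither gene had an OX TZP island at an end. RPS6, whose protein is phosphorylated by the S6 kinases downstream of the growth regulator TOR, had an OX ZFHD10 island (chr4:15347651-15348500) with 335 reads per kb (297 to 377). Inside RPS6 the OX TZP list had 188 reads per kb (155 to 226) in an island of 600 bp.

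RPS28 had the densest OX TZP island at an end of a ribosomal protein gene. The island (chr5:25669601-25670000) lay 824 bp outside RPS28, was centred nearer to another gene and also reached an end of AT5G64160. It held 77 reads, or 192.5 reads per kb (152 to 241), and ranked 1199 of 11675. On the other side of RPS28 an OX ZFHD10 island, 124 bp outside the gene and again centred nearer to another gene, had 317 reads per kb (286 to 349.6). The pair RPS5A and RPS5B, which encode the same protein, had islands of each line that did not meet. RPS5B had 158 reads per kb (131 to 188) in OX TZP and 316 (275 to 360.2) in OX ZFHD10, while RPS5A had 155 (134 to 178) and 270 (230.0 to 315). RPS10B was low in each list, with 146 reads per kb (127 to 167) in OX TZP and 204 (173 to 239) in OX ZFHD10, and its islands overlapped by 700 bp. RPS15 had OX ZFHD10 islands alone, the densest with 281 reads per kb (255 to 310.1).

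Plastid genes had OX ZFHD10 islands of 208 to 303 reads per kb. The highest values were at RPL15, with 303 (283 to 325) in an island of 2600 bp that covered 19.1% of the gene and was centred nearer to another gene, and at RPL27, with 300 (256 to 349). RPL27 had 3 OX ZFHD10 islands at its ends, and 1 of them overlapped by 250 bp an OX TZP island, with 182 reads per kb (148 to 221), that lay 587 bp outside the gene. RPL12-A, RPL12-B and RPL12-C lie in a cluster on chromosome 3 and encode the protein of the ribosomal stalk, which contacts the elongation factors. RPL12-B and RPL12-C shared their islands, so these are not separate observations: an OX TZP island (chr3:10323751-10325050) with 164 reads per kb (143 to 187), and within it an OX ZFHD10 island (chr3:10324251-10324900) with 252 (215 to 294). RPL12-A had an OX ZFHD10 island of its own with 258 reads per kb (221 to 301).

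RPL3P, whose protein lies near the site of peptide bond formation, had an OX TZP island wholly inside the gene, over 76.0% of it (chr3:5978151-5979650) with 169 reads per kb (149 to 191). Its OX ZFHD10 island (chr3:5979301-5980000) crossed the end of the gene with 221 (188 to 259), and the islands shared 350 bp. RPL9 was the only ribosomal protein gene with an OX TZP island and no OX ZFHD10 island at an end. The OX TZP island covered 71.1% of RPL9 with 148 reads per kb (131 to 166). RPS9 had 148 reads per kb (129 to 168) in OX TZP at 1 end and 208 (174 to 246) in OX ZFHD10 at the other. RPL4, RPL21C and RPL24 had OX ZFHD10 islands alone, of 226, 234 and 270 reads per kb.

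Of the mitochondrial small-subunit genes, RPS2 (AT3G03600) had islands of each line, which shared 450 bp. The OX TZP island (chr3:867251-868550) covered 86.5% of RPS2 with 162 reads per kb (141 to 186). In OX ZFHD10 the island (chr3:868101-869450) had 254 (228 to 282). RPS14 and RPS10 had OX ZFHD10 islands alone, of 267 (211 to 332) and 222 reads per kb (184 to 265).

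At the 14 genes with islands of each line, the islands overlapped at 9 (22.5% of the 40 genes, against 24.9% of all genes). The 9 genes were RPL10B, RPL12-B, RPL12-C, RPL18AA, RPL23AA, RPL27, RPL3P, RPS10B and RPS2. At the other 5, RPL18, RPS28, RPS5A, RPS5B and RPS9, the OX TZP and OX ZFHD10 islands at gene ends stood at opposite ends of the gene. Read as a share of each list, 14 of the 15 ribosomal protein genes with an OX TZP island had an OX ZFHD10 island (93.3%, against 77.9% over all genes), and 14 of the 35 with an OX ZFHD10 island had an OX TZP island (40%, against 48.5%).

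**Figure D4:**
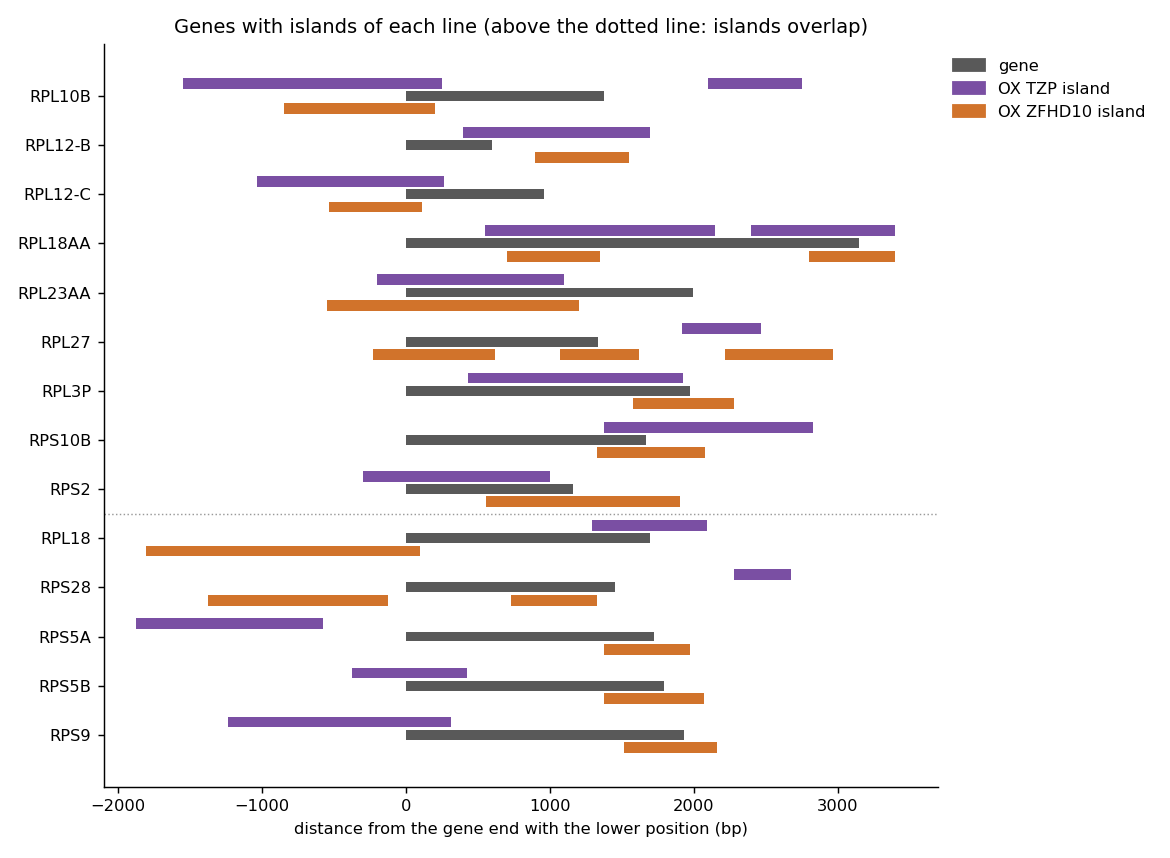
Position of OX TZP and OX ZFHD10 islands at the 14 genes with islands of each line, as distance from the gene end with the lower position (bp, x axis), drawn to scale with the gene in grey. At the 9 genes above the dotted line the islands overlap; at the 5 below it those at gene ends stand at opposite ends.

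OX TZP islands that lay inside a ribosomal protein gene and missed the end windows were found at 5 genes with no other OX TZP island. All 5, RPL24A, RPL34, RPL5B, RPS13A and RPS6, are cytosolic, as are 23 of the 40 genes. Their densities ran from 161 reads per kb at RPL5B to 188 at RPS6, with 166 (136 to 201) at RPL24A. At RPS13A, whose loss gives pointed first leaves, the island (chr4:37051-38200) covered 78.3% of the gene with 172 reads per kb (149 to 198). At ends alone, 37.5% of the 40 genes and 40.5% of all genes had an OX TZP island. With islands over the gene or at an end, 20 of 40 genes had one (50%, against 47.2% of all genes), 13 of 23 cytosolic (56.5%) and 6 of 13 plastid (46.2%). In OX ZFHD10 the same count stayed at 35 (87.5%, against 65.9%).

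The genes with no island of either line at an end were RPS13A and RPS18C (cytosolic), RPS1 (plastid) and RPS19 (mitochondrial). At RPS18C the nearest OX TZP island lay 1001 bp from the gene, just beyond the window, and the nearest OX ZFHD10 island 1951 bp away. For RPS13A and RPS19 the nearest OX ZFHD10 islands were 1767 and 1602 bp away. RPS1 stood apart, since the nearest OX ZFHD10 island on chromosome 5 was 457903 bp away, and the nearest OX TZP island 5700 bp away. RPL9, the remaining gene without an OX ZFHD10 island, was 8745 bp from the nearest.

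Genes that share a symbol apart from the closing letters were counted next, by symbol and not by protein. There were 10 such symbols with 22 genes, among them RPL3, RPL12, RPL16, RPL18, RPL23, RPL24, RPL27, RPS10 and RPS15. All genes had an OX ZFHD10 island at an end in each of the 10, where 87.5% of the 40 genes and 65.1% of all genes had one. In OX TZP all genes had an island for 2 symbols, RPL18 among them, some but not all for 5, and none for 3 (RPL16, RPL24 and RPS15). The OX TZP shares were 37.5% of the 40 genes and 40.5% of all genes. Counts by symbol were not made over all genes. Shared symbols do not always mean shared proteins: RPL3B and RPL3P, RPL24A and RPL24, RPL27AB and RPL27, and RPS10B and RPS10 belong to different compartments, while RPL18 and RPL18AA, and RPS15 and the pair RPS15A and RPS15AD, encode different proteins of the cytosolic ribosome. Among true copies, RPL23AA had an OX TZP island at an end and RPL23AB had none. Other copies were alike in this: RPS5A and RPS5B each had such an island, while RPL16A, RPL16B, RPS15A and RPS15AD had none. Of the RPL12 genes, RPL12-B and RPL12-C shared an island and RPL12-A had none. The sources used here do not say how reads that match several very similar copies were placed, so islands inside such genes are less certain than those outside them.

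Cytosolic genes had denser OX ZFHD10 islands than plastid genes in this set. The median cytosolic gene with an island stood at percentile 61.9 of the list (282 reads per kb) and the median plastid gene at percentile 43.2 (252 reads per kb), with 15 of 21 (71.4%) and 3 of 11 (27.3%) above the median of the list, against 60.2% of all genes with an island. The ranges overlapped, at 199 to 458 and 208 to 303 reads per kb. Among the 10 densest genes, the islands of RPL18, RPS15A and RPS28 (cytosolic) and RPL15 (plastid) were centred nearer to another gene. The plastid median is the density of the island shared by RPL12-B and RPL12-C, which was counted for each of them. With the compartment taken from words in the gene names alone, 4 of 5 cytosolic and 1 of 5 plastid genes lay above the median. The plastid genes outside the set did not follow this, since 6 of 8 genes with a plastid ribosomal protein name, another symbol and an OX ZFHD10 island lay above it (75%). By subunit, 8 of 9 large-subunit and 1 of 6 small-subunit genes lay above the median of the OX TZP list, against 51.7% of all genes with an island, while in OX ZFHD10 these counts were 11 of 21 and 8 of 14. The 8 include RPL12-B and RPL12-C, which share 1 OX TZP island at percentile 52.2, and RPL27, whose island was centred nearer to another gene. So was the island of RPS28, the 1 small-subunit gene.

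Other genes named for ribosomal proteins, 27 in number and outside the symbol rule, had OX ZFHD10 islands in 20 cases (74.1%, 55.3 to 86.8) and OX TZP islands in 10 (37.0%, 21.5 to 55.8). Together with the 40 genes, 67 in all, the shares were 82.1% and 37.3%, against 65.1% and 40.5% of all genes. Any ribosomal protein gene that is named otherwise is outside these counts. The interval of the OX ZFHD10 share of the 27 alone includes the 65.1% of all genes.

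Genes of ribosome assembly, translation and its control, a list of 45, were examined as other genes of the same process. An OX TZP island stood at 29 (64.4%, 49.8 to 76.8, against 40.5% of all genes) and an OX ZFHD10 island at 39 (86.7%, 73.8 to 93.7, against 65.1%). These genes had a median length of 2892 bp and a median summed distance to neighbours of 1240 bp. By role, OX TZP islands stood at 18 of 23 assembly genes (78.3%, 58.1 to 90.3), 5 of 14 translation genes (35.7%, 16.3 to 61.2) and 6 of 8 control genes (75%, 40.9 to 92.9). OX ZFHD10 islands stood at 21, 11 and 7 of them.

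Assembly genes with islands of each line were NUC1, NUC2, FIB1, FIB2, CBF5, BRX1-1, PES, BOP1, APUM23, APUM24, NOB1, REIL1, REIL2, SMO4, RID2, XRN2 and NOF1. Among the translation genes these were TIF3H1, EIF4A1, PAB4 and the elongation factor gene EF1A-A4 (AT5G60390), and among the control genes RAPTOR1, S6K1, S6K2, TCP14, TCP15 and TCP20. The densest OX ZFHD10 island of the list, and denser than at any ribosomal protein gene, was at APUM23, a gene for ribosomal RNA processing (chr1:27232751-27233800) with 563 reads per kb (518 to 610.1), rank 61 of 16122. It was followed by AT1G07940, another elongation factor gene, with 408 reads per kb (360.1 to 459.9), LOS1, which encodes an elongation factor of translocation, with 386 (333 to 444), and REIL2 with 365 (329 to 404). In OX TZP the densest islands were at TCP14, with 195 reads per kb (154 to 243), XRN2 with 193 (155 to 238), S6K2 with 191 (153 to 236) and EF1A-A4 with 180 (153 to 210.0). S6K1 and S6K2 are neighbours and shared their densest OX ZFHD10 island, of 355 reads per kb (321 to 391).

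**Figure D5:**
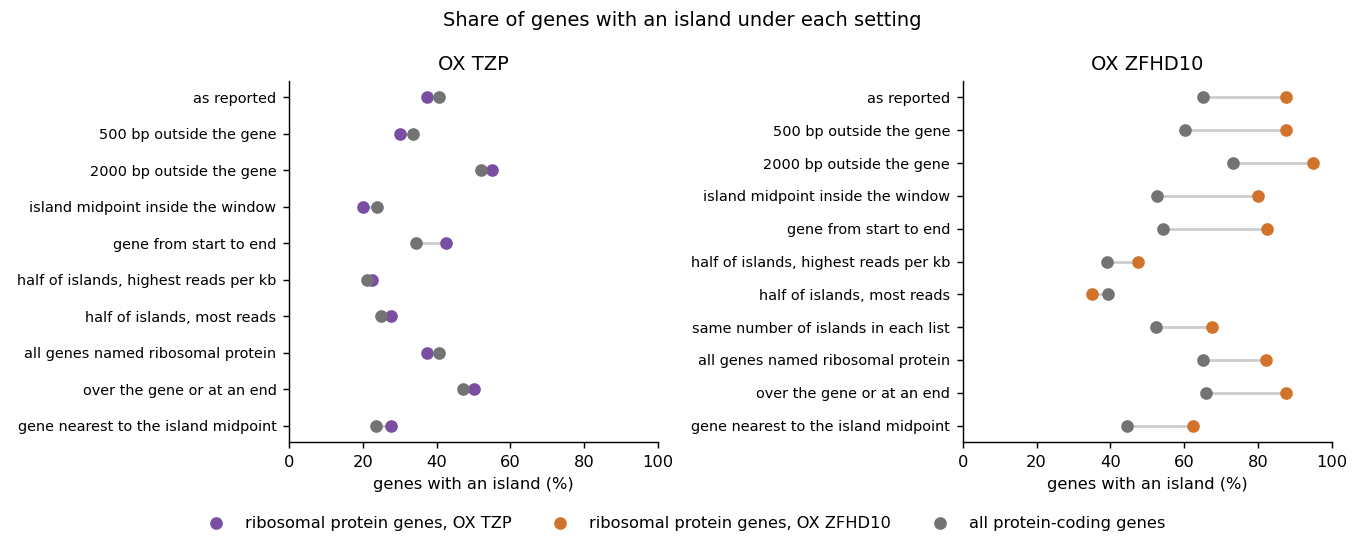
Share of genes with an island (percent, x axis) for the ribosomal protein genes and for all protein-coding genes under each setting of window, islands and membership. The OX ZFHD10 points of the ribosomal protein genes lie to the right of all genes except among the islands with the most reads, where they are at 35% against 39.4%, while the OX TZP points lie on either side.

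The OX ZFHD10 share of the ribosomal protein genes was not above that of all genes among the islands with the most reads. Among the 50% of OX ZFHD10 islands with the most reads, 14 of 40 genes had an island (35%, against 39.4% of all genes), and among the 50% with the highest density 19 had one (47.5%, against 39.2%). In the list cut to 11675 islands by density the share was 67.5%, against 52.3%.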

How the data were processed

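Anti-GFP chromatin immunoprecipitation libraries of 7-day-old seedlings were analysed through island lists of OX TZP and OX ZFHD10, 1 library each. Each deposited island carries a read count, a whole number that the authors did not scale; this reading rests on the values and the usual format of such lists. Tools named in the submitters' processing notes, without roles, are SICER 1.1, Bowtie 0.12.7, cutadapt 1.5 and HOMER, and the build is TAIR10. The list names record windows of 50 bp, gaps up to 200 bp and an FDR (false discovery rate) of 0.1. A loose rate admits weak islands, and island number and length depend on depth. The sources used here give neither the control library nor how duplicate and multiply matching reads were treated. PCR reads are not independent molecules, so intervals may be too narrow.

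Groups followed the genotype label. Genes came from the RefSeq table of TAIR10.1, whose gene positions were checked against the TAIR10 islands: on each of the 5 chromosomes, midpoints of OX ZFHD10 islands fell inside genes least often at an offset of 0 within 3000 bp. Density is the read count over the island's length in kb, and an overlap of at least 1 bp counted. Of several islands at a gene, the one with the highest density was used. The overlap step was tested on simulated islands (200 genes per distance). Tools were Python 3.11.15, pandas 2.3.3, numpy 2.4.6 and scipy 1.17.1. Alternatives changed the window, the overlap, the islands kept and the members.

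The genes and lists were chosen with earlier results of these data known, among them a high OX ZFHD10 share of ribosomal protein genes. Values are given for members with overlapping islands of each line, the 10 densest members per line and the 4 densest genes per line of the assembly, translation and control list. Other members with values were chosen after these were seen. The planned search for promoter motifs and a count at the start of genes alone were not run, since strand and sequence were not used here. Single values of some genes are not reported here, and these genes stay in every count.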

Additional observations from a re-analysis of the deposited data

How the results depend on the processing

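For OX ZFHD10, the 87.5% became 95% with 2000 bp outside the gene (73.2% of all genes) and 47.5% with the denser 50% of islands (39.2%). It became 67.5% with as many islands as the other list (52.3%) and 62.5% with the nearest gene alone (44.5%, chosen after seeing the data). With the 50% of islands with the most reads it became 35%, below the 39.4% of all genes, and the cause was not tested. For OX TZP, the 37.5% became 55% with 2000 bp (52% of all genes), 20% for island midpoints (23.9%) and 22.5% with the denser 50% of islands (21%). It was below the share of all genes at 500 bp (30% against 33.6%) and above it over the gene (42.5% against 34.3%). The share with islands of each line, 35%, became 52.5% with 2000 bp (42.8% of all genes) and 10% with the denser 50% (11.9%). Under the other settings each share stayed within its counting interval. A count at the start of genes alone was not run, since the gene table gives no strand. No paired analysis was possible because each line had 1 library. In OX ZFHD10 the subunit order was reversed among the 50% of islands with the most reads (27.3% large, 44.4% small, 39.4% all genes). With the denser 50% of OX ZFHD10 islands, plastid genes were at 23.1%, below the 39.2% of all genes, and cytosolic genes at 65.2%. In OX TZP the order of cytosolic and plastid genes was reversed over the gene (47.8% and 38.5%, against 34.3% of all genes). Groups of 4 to 23 genes limit comparisons between subunits and compartments.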
